A study of Homo sapiens with 2 samples.

Results

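The genes described here are 9 genes of heme synthesis and iron handling, out of 19974 protein-coding genes on chromosomes 1 to 22 and X. They are ALAS2, FECH, SLC25A38, SLC25A37, TFRC, FTH1, FTL, PCBP1 and PCBP2, and each was matched by symbol to RefSeq. The study asked how ERG, an ETS-family transcription factor of blood stem cells and megakaryocytes, holds back erythroid differentiation, and mapped it on chromatin in F36P, a human erythroleukaemia cell line. One group carried the empty MSCV-PIG retroviral vector (Vector, whose genotype the labels give as WT) and the other the same vector with AM-tagged ERG (AM-ERG, labelled as ERG overexpression). Puromycin selection lasted 4 days at 1 µg/ml in both groups, and an antibody against the AM tag was used for the immunoprecipitation. ERG was thus a tagged protein expressed from a retroviral vector in 1 cell line. The labels name 1 library per group, and a single peak list was analysed, whose source library is not stated, so values have no replicate error and the groups could not be compared. A gene was counted as having a peak when a summit in the deposited list lay inside it or at most 10 kb away.

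Red cell precursors need heme and iron in large amounts. Heme is built partly in mitochondria and partly in the cytosol. ALAS2, the erythroid 5-aminolevulinate synthase, joins glycine to succinyl-CoA in the step that starts the pathway, and FECH, ferrochelatase, puts iron into protoporphyrin in the step that ends it. SLC25A38 carries glycine into mitochondria and SLC25A37, mitoferrin-1, carries iron in. TFRC is the transferrin receptor through which iron enters the cell. FTH1 and FTL are the heavy and light subunits of ferritin, which stores iron, and PCBP1 and PCBP2 are RNA-binding proteins that also hand iron to ferritin. The RNAs of ALAS2, TFRC, FTH1 and FTL carry elements bound by iron regulatory proteins. Iron thus also acts on the expression of these genes after transcription, which ChIP-seq does not measure.

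By the 10 kb measure 3 of the 9 genes had a peak. PCBP1, an iron chaperone gene, had 2, and FTH1, a ferritin gene, and SLC25A38 had 1 each. Both PCBP1 summits were nearer to an end of a neighbouring gene, ASPRV1. ALAS2 and FECH, the only heme synthesis enzymes among the 9, had no peak, and are too few to describe that pathway. The list called 9.58% of all protein-coding genes by the 10 kb measure. Since the 9 genes were assembled with earlier results of these data known, their share is not read against that background. At their own start, or at either gene end where the table of starts used here lacked the gene (as for FTH1), PCBP1 and FTH1 had a summit within 1 kb, as did 6.06% of all protein-coding genes. The summit counted for SLC25A38 lay 9557 bp outside it, just inside the 10 kb limit, and in another gene. The other 6 genes, ALAS2, FECH, SLC25A37, TFRC, FTL and PCBP2, were 240 to 2182 kb from a summit.

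The sequences that bear on these sites follow, from RefSeq on GRCh38.p14, each the 250 bases before an annotated start, written 5′ to 3′ on the gene's strand. The PCBP1 window (chr2:70087227-70087476, plus strand) shares its outermost 35 bases with the stronger of its peaks. The window before a start of PCBP1-AS1, a long noncoding RNA gene on the opposite strand (chr2:70086947-70087196, minus strand), lies wholly inside that peak, with its near edge 51 bp from the summit. HSPA9, a mitochondrial chaperone gene of iron-sulfur cluster assembly described below, has its summit inside its own window (chr5:138575402-138575651, minus strand). SLC25A38 (chr3:39383120-39383369, plus strand) is shown for a gene whose counted peak is elsewhere. Capitals mark GGAA, the core that ETS factors recognise, on either strand, so that it reads GGAA or TTCC.
PCBP1: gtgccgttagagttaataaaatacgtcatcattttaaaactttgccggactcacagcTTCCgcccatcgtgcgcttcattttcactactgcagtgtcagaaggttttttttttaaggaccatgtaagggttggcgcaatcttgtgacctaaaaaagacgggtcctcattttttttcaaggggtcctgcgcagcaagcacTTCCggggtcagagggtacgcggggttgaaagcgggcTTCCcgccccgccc
PCBP1-AS1: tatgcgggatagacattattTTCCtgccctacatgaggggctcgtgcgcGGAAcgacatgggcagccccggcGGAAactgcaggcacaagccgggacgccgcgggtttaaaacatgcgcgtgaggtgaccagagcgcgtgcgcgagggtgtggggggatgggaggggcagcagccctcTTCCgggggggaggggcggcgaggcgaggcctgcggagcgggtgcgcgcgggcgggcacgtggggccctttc
HSPA9: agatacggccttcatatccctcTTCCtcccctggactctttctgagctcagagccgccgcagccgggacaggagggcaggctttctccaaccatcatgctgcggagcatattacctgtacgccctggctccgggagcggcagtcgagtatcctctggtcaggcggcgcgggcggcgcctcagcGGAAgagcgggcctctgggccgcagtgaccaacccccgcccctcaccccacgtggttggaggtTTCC
SLC25A38: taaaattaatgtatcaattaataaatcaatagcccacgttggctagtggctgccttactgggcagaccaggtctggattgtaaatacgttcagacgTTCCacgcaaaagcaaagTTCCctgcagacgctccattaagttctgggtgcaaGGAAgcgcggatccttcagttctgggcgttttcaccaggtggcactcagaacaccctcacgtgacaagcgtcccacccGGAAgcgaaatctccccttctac

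The ALAS2 window (chrX:55030978-55031227, minus strand) is shown because it held matches to motifs of factors other than ETS, and no peak. Its capitals mark AGATAA, which GATA factors bind, and TGACTCA, the AP-1 motif contained in NFE2 sites. Each was found on the opposite strand.
ALAS2: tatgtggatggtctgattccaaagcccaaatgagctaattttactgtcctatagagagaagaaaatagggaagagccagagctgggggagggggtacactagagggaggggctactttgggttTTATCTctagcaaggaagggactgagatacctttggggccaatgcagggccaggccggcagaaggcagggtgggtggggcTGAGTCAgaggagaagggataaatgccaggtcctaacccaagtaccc

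Of the 9 genes, PCBP1 had the counted peak of highest significance. PCBP1 is a short gene of 1727 bp on chromosome 2 (chr2:70087477-70089203). Its stronger peak spanned chr2:70086737-70087261, with the summit 581 bp before the annotated start. The fold enrichment over local background, the authors' value, was 6.33, with a −log10 q of 13.3, and 82.1% of 1564 peaks (those of chromosomes 1 to 22 and X) had a lower fold. The pileup recovered at the summit was 32 fragments (exact 95% Poisson interval 21.9 to 45.2) on a background of 4.21. The weaker peak, chr2:70085978-70086302, had its summit 1241 bp before the start, a fold of 4.40 and 22 fragments at the summit (13.8 to 33.3) over a background of 4.22. Both sites had nearly the same background, so their folds differed through the pileup, whose intervals overlap. The summits were 660 bp apart and the peaks were separated by 434 bp. Such intervals cover counting error only, and a summit is by selection the highest point of its peak.

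Both PCBP1 peaks also belonged to genes on the other strand. ASPRV1, which encodes a skin aspartic protease, and PCBP1-AS1 are annotated across the region on the strand opposite to PCBP1. The stronger summit was 479 bp inside ASPRV1, nearer to that gene's end than to PCBP1. It lay 121 bp downstream of another annotated ASPRV1 start and 50, 118 and 119 bp downstream of starts of PCBP1-AS1. The weaker summit was 37 bp downstream of an ASPRV1 start. The nearest annotated starts at both summits were therefore those of the opposite strand. No PCBP1 peak overlapped the PCBP1 gene itself. A further peak of 8.13 fold lay 36822 bp beyond the PCBP1 start, outside the 10 kb limit, and was not counted.

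**Figure D1:**
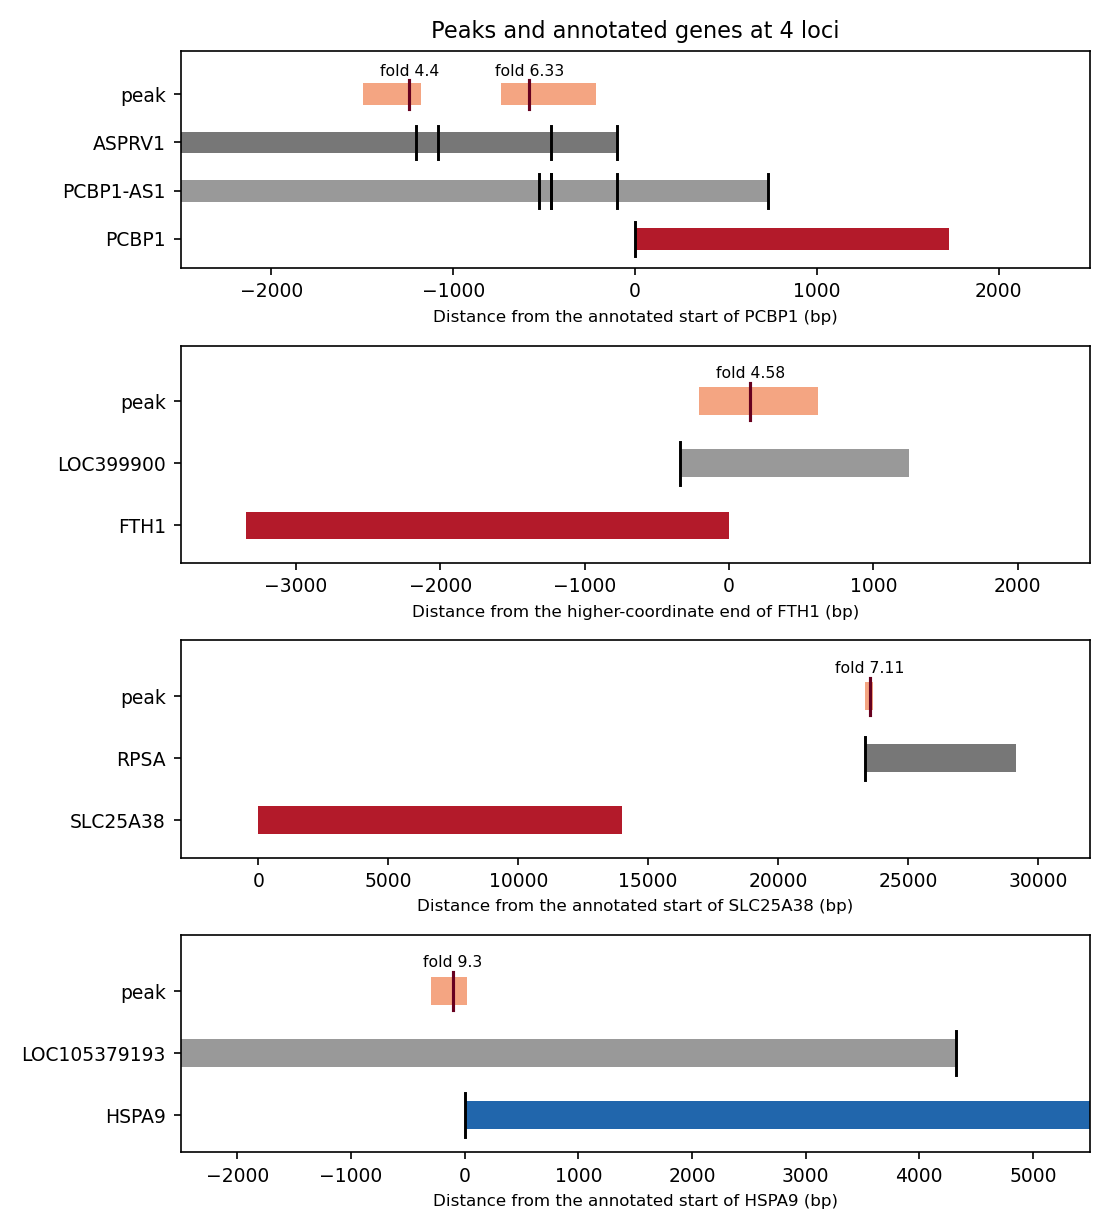
Peaks (orange, with the summit as a dark line and the authors' fold above it) and annotated genes (bars) at PCBP1, FTH1, SLC25A38 and HSPA9, plotted by distance in bp from each gene's annotated start, or from the higher-coordinate end of FTH1. Black ticks are annotated starts, bars are cut at the panel edges, and the SLC25A38 peak sits on RPSA and not on SLC25A38.

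PCBP2, the relative of PCBP1, had no peak. Its gene is on chromosome 12 (chr12:53452102-53481162) and the nearest summit was 708 kb away, 119 bp inside SMUG1, a DNA repair glycosylase gene, with a fold of 6.16. The windows before the PCBP1 and PCBP2 starts nevertheless share a stretch of 42 bases, of which 37 are identical in an ungapped match. In each it holds CCGGAA, an ETS motif that contains GGAA, on the opposite strand and marked by capitals as TTCCGG. The stretches are at chr2:70087421-70087462 and chr12:53452041-53452082, both on the plus strand, and end 15 and 20 bases before the start.
PCBP1: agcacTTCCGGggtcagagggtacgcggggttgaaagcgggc
PCBP2: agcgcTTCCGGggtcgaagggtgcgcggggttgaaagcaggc

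The CCGGAA of this shared stretch was not where the PCBP1 peak stood. It was 532 bp from the stronger PCBP1 summit and outside the peak. Within the peak, the PCBP1-AS1 window held another CCGGAA at 120 bp from the summit. In PCBP2 the same motif was 736818 bp from any summit. As background, PCBP1 is known as an intronless gene that arose from a copy of PCBP2 RNA. The shared stretch lies before both annotated starts, and its origin was not tested.

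Of the ferritin genes, FTH1 had a peak and FTL had none. The FTH1 peak was broad, 824 bp (chr11:61967426-61968249), where the median over all peaks was 390 bp. Its summit lay 148 bp beyond the higher-coordinate end of FTH1 (chr11:61964285-61967634), and the peak reached into the gene. The fold was 4.58, close to the median of 4.66, with a −log10 q of 5.99 and a pileup of 22 fragments (13.8 to 33.3) on a background of 4.02. No other protein-coding gene end was nearer, that of BEST1 being 2267 bp away. The summit was inside LOC399900, an annotated long noncoding RNA gene, 488 bp downstream of its start. FTH1 thus had the only peak among the 9 genes for which its own end was the nearest protein-coding end. By that stricter measure 6.18% of all protein-coding genes were called.

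FTL, on chromosome 19 (chr19:48965309-48966879), was 240 kb from its nearest summit, which lay inside RASIP1, an endothelial Ras-interacting protein gene, with a fold of 4.21. Chromosome 19 is rich in peaks, and 63.7% of its 1451 protein-coding genes had a nearer summit than FTL. Pseudogenes of FTL are numerous in the annotation. A summit lay within 10 kb of 1 of 20 FTL pseudogenes. The peak by FTLP1 (7.09 fold) was 2805 bp outside that pseudogene and 109 bp from an end of ZNF335. How the alignment treated reads that fit several copies was not given in the sources used here, and its part in these values was not tested.

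The mitochondrial carriers had 1 counted peak between them, and it was not their own. The peak counted for SLC25A38 (chr3:39406725-39407033) had a fold of 7.11, higher than 88.4% of peaks, with a −log10 q of 9.85 and a pileup of 20 fragments (12.2 to 30.9) on a background of 1.95. Its summit was 188 bp downstream of the start of RPSA, a ribosomal protein gene. From the SLC25A38 start (gene at chr3:39383370-39397351) it was 23538 bp away, past the far end of the gene. The SLC25A38 window itself held 1 CCGGAA, 25 bases before the start, and no peak. SLC25A37 (chr8:23528956-23575463) had no peak within 282 kb. Its nearest summit, at 10.3 fold and 33 fragments (22.7 to 46.3), was 3050 bp inside CHMP7, an ESCRT gene. In the SLC25 carrier family, added after the values were seen, 7 of 48 genes were called, or 14.6%, beside 9.58% of all protein-coding genes. SLC25A38 is among the 7, and the count does not ask whether another gene end was nearer, so no excess is read from it.

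The heme enzymes ALAS2 and FECH were the farthest from any peak. ALAS2 (chrX:55009055-55030977) was 1587 kb from the nearest summit, which had a fold of 9.25 and stood 301 bp inside SMC1A, a cohesin gene. Peaks were sparse on the X chromosome, where the median distance over 848 protein-coding genes was 3820 kb and 36.2% of genes had a nearer summit than ALAS2. FECH (chr18:57544377-57586702) was 2182 kb away from its nearest, inside TCF4, a basic helix-loop-helix factor gene, with a fold of 5.82. On chromosome 18, 72.6% of 270 protein-coding genes had a nearer summit than FECH, and over all chromosomes 81.8% did. TFRC (chr3:196049284-196082090), the transferrin receptor gene, was 607 kb from a weak peak of 2.42 fold, 378 bp inside ACAP2, on a background of 10.6 fragments where the median was 3.52. For all protein-coding genes the median distance was 412 kb. FTL and SLC25A37 were nearer to a peak than the median gene, and PCBP2, TFRC, ALAS2 and FECH farther. Several of these distances depend on which peaks are kept. In the upper 50% of peaks by fold or by −log10 q, FTL was 496 kb and TFRC 1709 kb from a summit. PCBP2, still at 708 kb, was then nearer than the median gene (787 and 1026 kb). In the upper 50% by fold FTH1 was 534 kb away, and without peaks of raised background TFRC was 860 kb away.

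**Figure D2:**
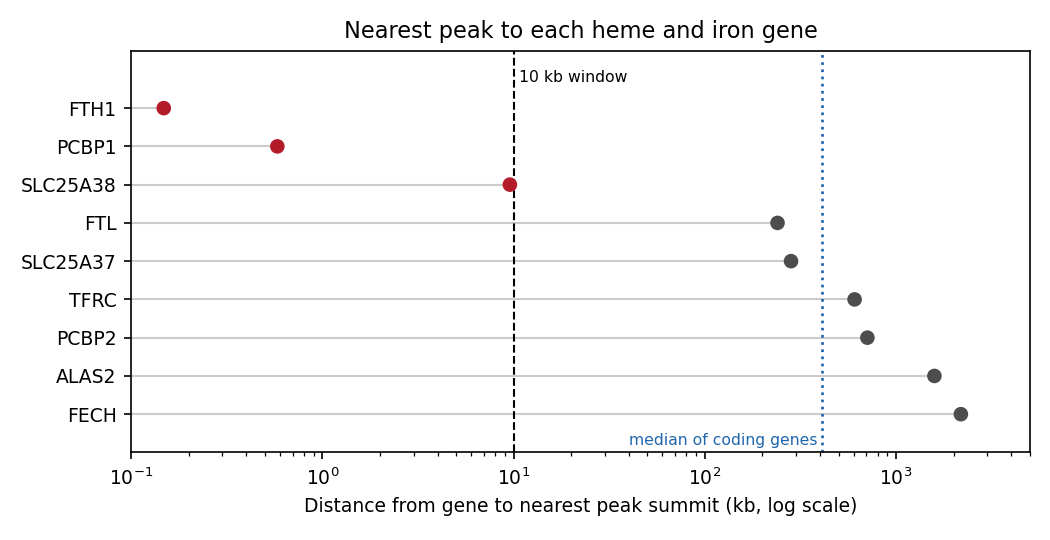
Distance in kb (log axis) from each of the 9 genes to the nearest summit, in red where it is within 10 kb. FTH1, PCBP1 and SLC25A38 lie left of the dashed 10 kb line, and PCBP2, TFRC, ALAS2 and FECH lie right of the dotted line at 412 kb, the median of all protein-coding genes.

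The wider pathway was then counted over 82 genes in 7 groups, the 9 genes included. Of these, 5 were called, or 6.10%, beside 9.58% of all protein-coding genes. The median distance to a summit was 414 kb for the 82 genes and 412 kb for all. None of the 9 heme synthesis enzymes was called, nor any of 13 genes of heme export, breakdown and sensing, 12 of iron uptake and export or 11 of iron sensing. Among 10 heme pathway transporters and helpers SLC25A38 and TSPO were called, among 8 iron storage and chaperone genes FTH1 and PCBP1, and among 19 genes of iron-sulfur cluster assembly HSPA9. With the 9 genes described here left out, 2 of 73 were called, or 2.74%. Those 9 genes and the lists were chosen with earlier results of these data known, which bears on both shares. Neither share is therefore read against the 9.58%, and each group is too small for its count to be read against it.

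HSPA9 had the strongest peak of the 82 genes. It encodes mortalin, a mitochondrial HSP70 chaperone that works in iron-sulfur cluster assembly and in protein import. The peak (chr5:138575380-138575693) had a fold of 9.30, the 51st highest of 1564, a −log10 q of 21.0 and a pileup of 35 fragments (24.4 to 48.7) on a background of 2.87. The summit stood 104 bp before the HSPA9 start, and the nearest end of another protein-coding gene, ETF1, was 32269 bp away. LOC105379193, a noncoding gene on the opposite strand, is annotated across it. The HSPA9 window held 3 GGAA cores, the closest 38 bp from the summit, 1 AGGAAG and no CCGGAA. Of the 82 genes, only HSPA9 and FTH1 had a counted peak that was nearest to their own end.

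TSPO, which encodes a porphyrin-binding protein of the outer mitochondrial membrane, was counted through a weak peak of 2.86 fold (chr22:43143035-43143477, −log10 q 1.94). The background there was 6.34 fragments and the pileup 20 (12.2 to 30.9). The summit was 8230 bp from TSPO and 69 bp inside MCAT, a mitochondrial fatty acid synthesis gene. Just outside the limit, BOLA3, an iron-sulfur cluster gene, was 14.9 kb from a summit of 4.42 fold.

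**Figure D3:**
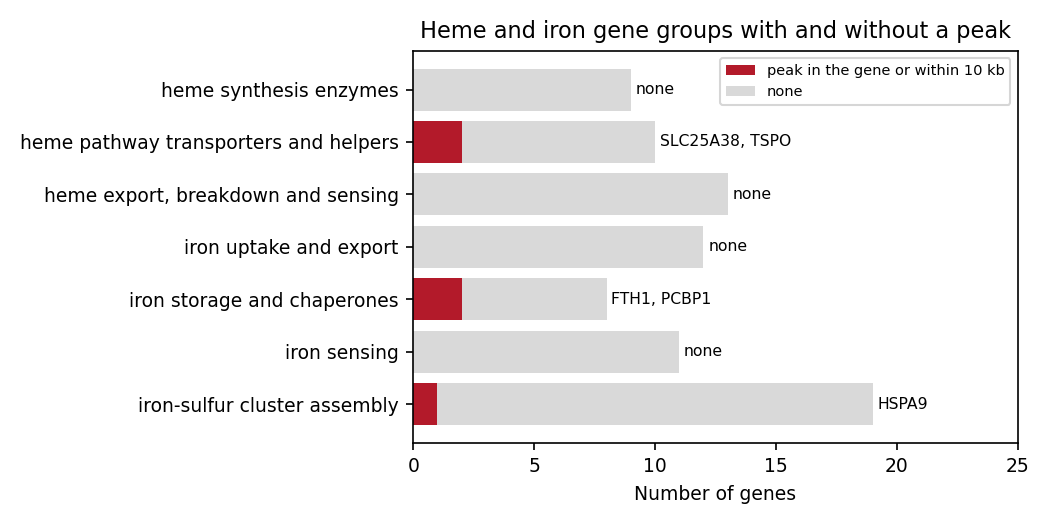
Number of genes with (red) and without (grey) a summit at most 10 kb away in each of 7 heme and iron gene groups, with the called genes named. The 9 heme synthesis enzymes have no red part, and the 2 iron storage and chaperone genes called are FTH1 and PCBP1.

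**Figure D4:**
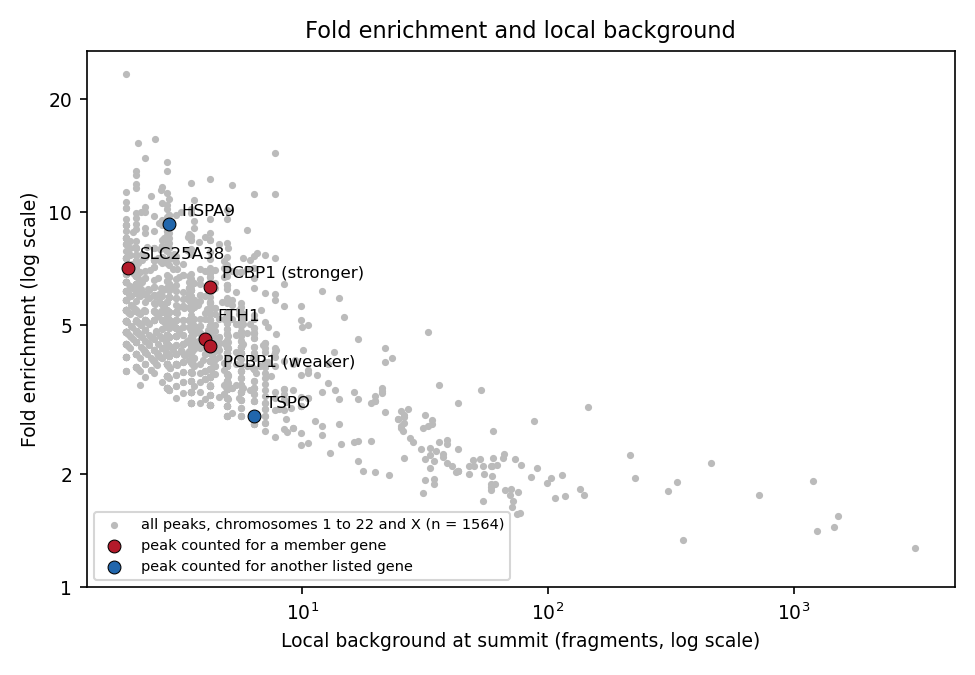
Fold enrichment against local background in fragments (both log axes) for 1564 peaks (grey), with the 4 peaks counted for PCBP1, FTH1 and SLC25A38 in red and those of HSPA9 and TSPO in blue. The red points lie on backgrounds of 1.95 to 4.22 fragments, and the TSPO peak, at 2.86 fold, lies near the lower edge of the peaks on its background.

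Upstream sequence was compared last, as a description. Of the 9 genes, 7 were in the table of RefSeq upstream windows used here, which does not cover every gene, and FTH1 and SLC25A37 were not. Over 34789 windows of 250 bases before an annotated start, 14.5% held CCGGAA on either strand and 92.7% held GGAA, which CCGGAA and AGGAAG contain. In the 357 windows that held a summit these shares were 66.7% and 99.2%. Windows of neighbouring starts can overlap, so the same summit or motif can be counted in several windows. AGGAAG, the other ETS motif searched, was in 28.8% of all windows and in 30.5% of those with a summit. Windows with a summit also had more G and C, a median of 68.8% beside 58.0%, and the part of base composition in these shares was not tested.

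Among the 7 genes, CCGGAA was found in the windows of PCBP1, PCBP2 and SLC25A38, none of which held a summit. Over all windows with CCGGAA, 4.72% held one. AGGAAG was in the windows of ALAS2, TFRC and SLC25A38. The FECH window, at 72.4% G and C, held no GGAA. FTL held 2 GGAA cores and no longer ETS motif. AGATAA was found in ALAS2 alone, 127 bases before the start, beside 9.20% of all windows and 2.80% of windows with a summit. TGACTCA was likewise in ALAS2 alone, at 47 bases, beside 4.19% and 1.12%, and TGATAA, in 6.65% of all windows, was in none of the 7. The motifs were searched on both strands in these windows only.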

How the data were processed

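The series holds ChIP-seq of the AM tag in F36P cells, with 1 AM-ERG and 1 Vector library. Per the labels' protocols, each used 10000000 cells, 1% formaldehyde, micrococcal nuclease (20 minutes) and 10 µg of chromatin. Per the submitters' processing notes, Bowtie2, MACS2 and deepTools were used with build hg38, at versions not given in the sources used here. Narrow peaks, 1645 in all, make up the file. In it the authors' MACS2 run gave each peak a score (10 times the −log10 q, cut to a whole number). MACS2 also made, as deposited by the authors, the fold enrichment, a ratio of the summit to local background. The deposited −log10 p-value and −log10 q-value were made by the authors with MACS2 for each summit against that background. The largest q was 0.0474. The library behind the list, and its control, are likewise not stated. There is thus no replicate error, no test between the groups and no check of the cells against markers, and read depth is unknown.

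Pileup and background at each summit were recovered from the fold (pileup plus 1 over background plus 1) and the Poisson p, within 0.001 in log10 p for 100% of peaks. Tested on simulated data, 300 of 300 peaks were returned. Genes and upstream windows came from RefSeq (GRCh38.p14), and 1564 peaks on the chromosomes used were kept. Positions are 1-based. The members and gene lists were chosen with earlier results of these data known. All 9 members, other listed genes with a peak and the genes at those peaks were named, apart from 1 result that is not reported here; BOLA3 and the pseudogenes were named after their values were seen. Alternatives changed the peaks kept, the window and the owner of a peak. No test was run. Software was Python 3.11.15, numpy 2.4.6, pandas 2.3.3, SciPy 1.17.1, matplotlib 3.10.9.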

Additional observations from a re-analysis of the deposited data

How the results depend on the processing

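No paired analysis was possible because neither group has replicates. Of 21 alternatives to the 3 counts, 13 stayed within 1.5 times the value reported. The members with a peak within 10 kb were 3. They were 2 within 1 kb and within 5 kb (PCBP1 and FTH1), and 2 in the upper 50% by fold (PCBP1 and SLC25A38). The limit of 1.5 times still passes a fall from 3 to 2. Only 1 member (FTH1) was left when no other coding gene end might be nearer (6.18% of all coding genes). The 5 pathway genes became 2 (FTH1 and HSPA9) by that measure. They were 3 within 1 kb (7.23%) and 3 within 5 kb (8.38%), where SLC25A38 and TSPO dropped out, 3 in the upper 50% of peaks by fold (5.49%), where FTH1 and TSPO did, and 13 within 50 kb (17.7%). The 2 members with a peak at their own end, PCBP1 and FTH1 (6.06%), were 1 within 500 bp (FTH1, 5.34%) and 1 in the upper 50% by fold (PCBP1, 3.40%). Of 27 distances recomputed, for 9 members under 3 choices of peaks, 21 were unchanged, and those of TFRC, FTL and FTH1 moved as given above. Each change follows from how the setting is built. Leaving out 190 peaks on backgrounds above 2 times the median (7.04 fragments) could not change any of the 3 counts. Every counted peak lay on a background of 6.34 fragments or fewer. With 1 list and unknown depth, a gene without a peak is not shown to lack ERG.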
